A study of Homo sapiens with 12 samples.

Results

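Skipped exons of the numbered zinc finger (ZNF) genes were followed through knockdown of SFSWAP, a splicing regulator related to the SR proteins. The members are skipped exon events, each a cassette exon read against its 2 neighbouring exons, in genes whose symbol is ZNF followed by a number and at most 1 letter, averaging 10 or more reads a library. Without UPF1 knockdown, 1824 events at 1470 distinct exons of 314 genes met this rule, out of 2337 ZNF events before the read minimum and 115209 events of all genes. In the UPF1 knockdown background there were 1670 members at 1364 exons of 315 genes, out of 2153 ZNF events and 110136 events of all genes. Across both tables the rule took in 2391 events of 338 genes, 1103 of them in both tables. At the edge of the rule, an event of ZNF684 was kept at 10 reads per library and an event of ZNF185 was left out at 9.83, and with UPF1 knockdown the same edge ran between ZNF518A at 10 and ZNF674 at 9.83.

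PolyA RNA was sequenced from HEK293A-TOA cells, a line derived from human embryonic kidney HEK293 cells. All 4 groups received 1 μM TG (Thiamet-G), an inhibitor of the O-GlcNAcase OGA, for 6 hr, so that cells with normal O-GlcNAc levels are not among them and were not analysed here. siNT cells carried non-target siRNA, siSFSWAP cells siRNA against SFSWAP, siNT/siUPF1 cells non-target siRNA with siRNA against UPF1, and siSFSWAP/siUPF1 cells siRNA against both, with 3 biological replicates per group from cells passaged at different times. The first question was which ZNF exons are included more or less after SFSWAP knockdown, and the second whether the same is seen when UPF1, the helicase of nonsense-mediated decay (NMD), is depleted so that transcripts with premature stop codons are spared.

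ZNF genes form the largest family of DNA-binding proteins in the human genome. Most encode an array of C2H2 zinc fingers, and many also carry a KRAB domain near the amino terminus, which recruits the corepressor TRIM28 and with it the methyltransferase SETDB1 and heterochromatin proteins to silence transposable elements. A typical KRAB-ZNF gene has a few short exons for the leader and the KRAB A and B boxes, followed by 1 long last exon with all the fingers. Skipping of an internal exon can therefore remove the repressor domain or shift the reading frame while the finger exon stays in the transcript. Many of the genes are clustered on chromosome 19 as products of tandem duplication, and reads from near-identical copies may be assigned to the wrong member, so that single low values in close relatives are uncertain.

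The member genes fitted that description. A protein could be read for 329 of the 338 genes from the reference transcripts. Of these, 325 held at least 1 C2H2 finger pattern, with a median of 11.0 and a maximum of 36, and 217 held a KRAB A pattern, a run of residues written after the known box. Chromosome 19 carried 163 of the genes and chromosome 16 carried 19. The KRAB A pattern is strict and misses divergent boxes. For example, it did not match ZNF263, a SCAN and KRAB factor.

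The knockdowns were visible in the same tables. Per 1000000 reads at skipped exon events, those at SFSWAP events numbered 121 ± 6.65 in siNT and 47.1 ± 11.1 in siSFSWAP libraries, and 72.4 ± 7.57 and 29.1 ± 9.99 with UPF1 knockdown (mean ± SD of 3 libraries, here and for all values with ±). Both differences had an exact two-sided permutation p of 0.1, the smallest that 3 against 3 libraries allow. Reads at UPF1 events were 0.296 times as many in siNT/siUPF1 as in siNT libraries. The libraries held between 25938092 and 40637076 such reads in all, a read being counted at each event it touches, so that overlapping exons share reads. On the same scale, member reads came to 4279 ± 460 in siNT and 4552 ± 415 in siSFSWAP libraries (exact permutation p = 0.5), and 4664 ± 377 against 4739 ± 441 with UPF1 knockdown (exact permutation p = 0.9), so a change in the share of skipped exon reads at members was not detectable. This share also depends on inclusion and on which events are listed, and the amount of ZNF transcripts was not measured. The inclusion level, the length-normalised share of transcripts that hold the exon, ran from 0 to 1. In siNT cells 21.4% of the members had a mean level of at most 0.1 and 28.6% one between 0.1 and 0.9, and the rest lay higher.

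Before the values, the exons on which the results turn are shown as DNA of their own strand, 5′ to 3′, read from GRCh38, with the exon in capitals, the last 20 intron bases before it and the first 6 after it in lower case. The first set holds exons that were included less after SFSWAP knockdown, ZNF207 exon 6 (chr17:32361468-32361515, plus strand) and exon 9 (chr17:32366665-32366757, plus strand), both coding, and ZNF641 exon 4 (chr12:48345345-48345474, minus strand), also coding.
ZNF207 exon 6: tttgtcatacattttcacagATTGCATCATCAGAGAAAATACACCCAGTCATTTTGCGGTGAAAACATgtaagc
ZNF207 exon 9: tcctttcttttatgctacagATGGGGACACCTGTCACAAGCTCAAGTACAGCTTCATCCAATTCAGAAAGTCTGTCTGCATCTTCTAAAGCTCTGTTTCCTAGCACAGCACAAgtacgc
ZNF641 exon 4: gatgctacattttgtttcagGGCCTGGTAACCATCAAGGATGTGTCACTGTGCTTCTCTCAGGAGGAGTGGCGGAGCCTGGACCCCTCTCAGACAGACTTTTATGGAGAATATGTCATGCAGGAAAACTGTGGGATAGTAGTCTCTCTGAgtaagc

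The second set holds exons that were included more. These are ZNF384 coding exons 5 (chr12:6678663-6678710, minus strand) and 9 (chr12:6672350-6672532, minus strand), the latter with a finger pattern in its translation, a coding exon of ZNF598 and the 51 nt form nested at its 3′ end (chr16:1998965-1999121 and chr16:1998965-1999015, minus strand), and an exon of a noncoding ZNF26 transcript (chr12:132987665-132987768, plus strand).
ZNF384 exon 5: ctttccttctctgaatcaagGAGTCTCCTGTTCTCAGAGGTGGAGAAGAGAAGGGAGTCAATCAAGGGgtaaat
ZNF384 exon 9: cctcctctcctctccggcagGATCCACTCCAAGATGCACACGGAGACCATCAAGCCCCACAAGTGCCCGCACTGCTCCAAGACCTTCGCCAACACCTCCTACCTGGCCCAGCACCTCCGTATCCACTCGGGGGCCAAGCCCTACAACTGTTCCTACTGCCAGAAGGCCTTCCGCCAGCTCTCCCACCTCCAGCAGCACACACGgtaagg
ZNF598 exon of 157 nt: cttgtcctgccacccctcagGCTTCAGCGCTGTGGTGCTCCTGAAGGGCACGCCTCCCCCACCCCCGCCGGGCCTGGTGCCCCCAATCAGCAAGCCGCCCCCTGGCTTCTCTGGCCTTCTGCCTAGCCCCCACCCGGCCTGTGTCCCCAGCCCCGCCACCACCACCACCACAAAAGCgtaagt
ZNF598 exon of 51 nt: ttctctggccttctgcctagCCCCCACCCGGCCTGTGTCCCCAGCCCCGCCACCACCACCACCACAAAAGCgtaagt
ZNF26 exon of 104 nt: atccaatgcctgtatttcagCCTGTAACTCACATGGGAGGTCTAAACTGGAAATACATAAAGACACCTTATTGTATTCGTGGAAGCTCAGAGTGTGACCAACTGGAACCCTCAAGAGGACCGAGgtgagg

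The third set shows the length class that stands out among the members, exons of 127 nt that code for the KRAB A box or align to such an exon. They are ZNF75A exon 5 (chr16:3313049-3313175, plus strand), a coding exon of ZNF655 (chr7:99562368-99562494, plus strand) and an exon of the pseudogene ZNF767P (chr7:149621046-149621172, minus strand).
ZNF75A exon 5: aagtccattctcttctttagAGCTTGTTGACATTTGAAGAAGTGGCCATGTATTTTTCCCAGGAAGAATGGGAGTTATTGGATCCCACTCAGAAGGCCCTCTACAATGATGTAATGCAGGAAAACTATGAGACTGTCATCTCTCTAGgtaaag
ZNF655 exon of 127 nt: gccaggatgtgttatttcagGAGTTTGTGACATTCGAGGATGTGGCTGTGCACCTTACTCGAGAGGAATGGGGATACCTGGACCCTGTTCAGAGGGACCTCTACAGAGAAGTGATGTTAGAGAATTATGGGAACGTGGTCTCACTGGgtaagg
ZNF767P exon of 127 nt: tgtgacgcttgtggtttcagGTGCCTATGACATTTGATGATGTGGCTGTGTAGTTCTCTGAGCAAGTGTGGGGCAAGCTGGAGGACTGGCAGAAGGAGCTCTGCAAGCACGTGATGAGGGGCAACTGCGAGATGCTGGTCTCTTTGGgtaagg

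By the quasi-binomial test, knockdown of SFSWAP mostly raised inclusion where ZNF exons responded. Of 809 member events in 230 genes with enough reads of both forms to be tested, 43 rose and 10 fell (adjusted p of at most 0.05, quasi-binomial test with limma's variance shrinkage, adjusted over all events). That is 5.32% higher and 1.24% lower, beside 7.76% higher and 4.21% lower over the 33839 events of all genes, so that the ZNF share was below that of events at large in both directions. ZNF events were also read less deeply, with a median of 41.8 reads per library against 110. The 43 higher events lay in 15 genes and the 10 lower events in 6, and no gene had both. Among events that passed, 81.1% of the members and 64.8% of all events rose. The member events include overlapping forms that share reads, and 8 of the 43 rises lay in ZNF598 and 6 in ZNF205. Genes with a rise and genes with a fall numbered 15 and 6 among members, and 1072 and 690 over all events.

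Of the tested members, 93 differed between group means by at least 0.2 in inclusion level, 11.5% beside 8.67% of all events, which were read more deeply, and 37 of the 93 passed the test. The inclusion levels of the 2 groups did not overlap at 97 higher and 50 lower member events, 18.2% of those tested, while 25.9% of all events were separate. The test gave the events a nearly common dispersion (2.38), and some events varied more than that between replicates. With limma on the log2 odds of the reads (pseudocount 0.5), 4 members rose and 7 fell, beside 717 rises and 522 falls over all events. The lean of the members towards rises thus did not hold by limma. With each event's own dispersion neither a member nor any other event passed. Leaving out any 1 library left between 15 and 37 higher events, and 3 to 8 lower ones. Exons are therefore given below with their values in every library, in the order in which the tables list the libraries, and n is 3 per group throughout.

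**Figure D1:**
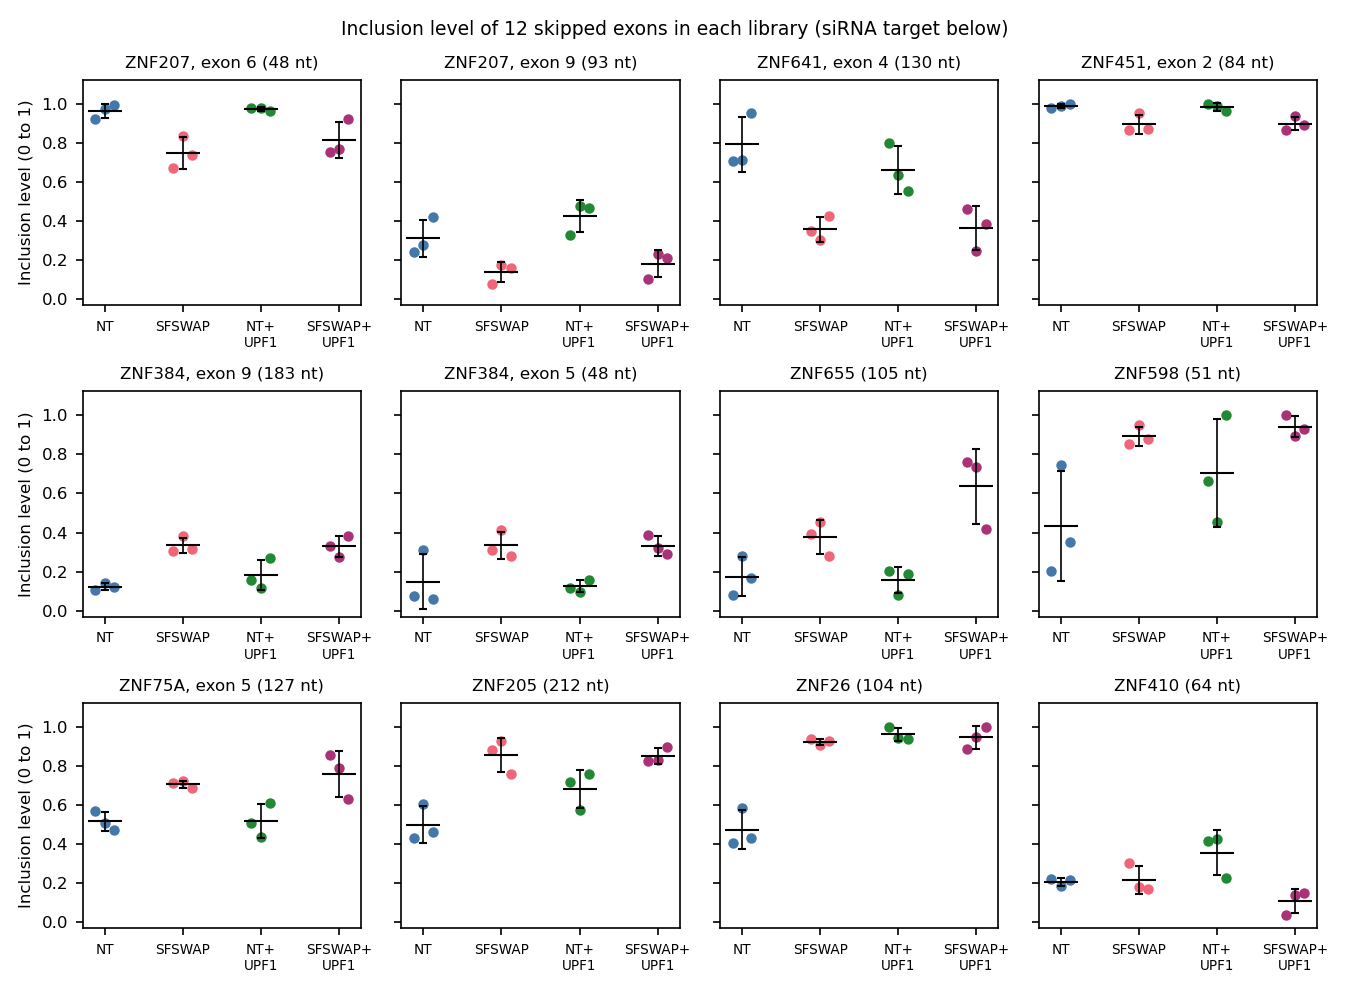
Inclusion level (y axis, 0 to 1) of 12 skipped ZNF exons in each of the 12 libraries, 3 per group, with the siRNA targets on the x axis; points are libraries, and the horizontal line and bars are the mean ± SD. In ZNF207 and ZNF641 the points of both SFSWAP knockdown groups lie below their controls, in ZNF384 exon 9 and ZNF655 above, and in ZNF26 the siNT libraries lie below all the others.

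Both exons of ZNF207 that could be tested were included less. ZNF207, also known as BuGZ, is a spindle protein that binds and stabilises the checkpoint protein BUB3, and its exons 6 and 9, of 12, keep the reading frame. Exon 6 was at 0.922, 0.971 and 0.991 in siNT and at 0.673, 0.833 and 0.736 in siSFSWAP libraries, every one of the latter lower, a mean difference of -0.214 (log2 odds ratio -3.07 ± 0.40 SE, adjusted p = 4.58e-11). Exon 9, a mostly skipped exon, was at 0.240, 0.278 and 0.420 in siNT and at 0.0809, 0.175 and 0.163 in siSFSWAP libraries (difference -0.173, adjusted p = 2.35e-08), again without overlap. These exons were read deeply, at 544 and 548 reads per library, and both calls held without any 1 library, but their own dispersions, 13.6 and 23.1, were far above the common value, and limma gave adjusted p = 0.0681 and 0.245. An event that reads exon 9 against another pair of neighbours gave a difference of 0.0639 (adjusted p = 0.201).

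ZNF641, ZNF451 and ZNF700 each had a coding exon that fell. ZNF641 exon 4 (130 nt, out of frame) was at 0.708, 0.713 and 0.952 in siNT and at 0.347, 0.302 and 0.426 in siSFSWAP libraries (adjusted p = 0.00288, and 0.0569 and 0.0607 without the last siNT and the second siSFSWAP library), the largest fall among exons with at least 30 reads per library. Exon 2 of ZNF451, a SUMO ligase, fell by less, from 0.988 ± 0.0107 to 0.894 ± 0.0481 (84 nt, in frame, chr6:57090811-57090894, adjusted p = 0.0347). In ZNF700, exon 3 had no skipping read in any siNT library and was at 0.958, 0.927 and 0.844 in siSFSWAP libraries (61 nt, chr19:11947514-11947574, adjusted p = 0.0306), and an unannotated 88 nt form with an upstream 3′ splice site went from 1.00 in every siNT library to 0.864, 0.775 and 0.708 (adjusted p = 0.0263). Without the last siSFSWAP library the difference at ZNF700 exon 3 went from -0.0905 to -0.0577 (adjusted p = 0.178). Both ZNF700 calls held only when the first siSFSWAP library was left out, and that of ZNF451 only when the second was, the other fits giving adjusted p of up to 0.180. With UPF1 knockdown ZNF700 exon 3 had means of 0.934 and 0.935 (adjusted p = 0.936).

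The other 4 lower exons were of 2 genes outside the rule for named genes and were picked after their values were seen. An exon of ZNF561 found in an NMD transcript (138 nt, chr19:9617621-9617758) fell from 0.114 ± 0.0742 to 0.0393 ± 0.0102, with groups that overlapped (adjusted p = 0.00867). The 3 forms of a leader exon of ZNF711, an X-linked gene associated with intellectual disability, were at 1.00 in all siNT libraries, and exon 3 itself (259 nt, chrX:85246930-85247188) was at 0.392, 0.217 and 0.0766 in siSFSWAP libraries (adjusted p = 0.00317). Only 13.2 reads per library lay behind this event. In the UPF1 knockdown table the same exon was at 1.00, 0.392 and 0.554 in control and 0.753, 0.392 and 1.00 in SFSWAP knockdown libraries, without a detectable difference (adjusted p = 0.975).

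Among the exons that rose, ZNF384 had the lowest adjusted p. ZNF384 is a C2H2 transcription factor, and its exon 9 (183 nt, in frame) codes for fingers. Exon 9 was at 0.107, 0.141 and 0.123 in siNT and at 0.307, 0.380 and 0.318 in siSFSWAP libraries, a difference of 0.211 with no overlap (log2 odds ratio 1.83 ± 0.21 SE, adjusted p = 1.43e-10, limma 0.124). Exon 5 (48 nt, in frame) was at 0.0745, 0.310 and 0.0618 in siNT and at 0.312, 0.412 and 0.278 in siSFSWAP libraries. It passed the test (adjusted p = 0.00459), but the second siNT library lay above 1 of the siSFSWAP libraries. Leaving out any library other than that one lost the call, with adjusted p between 0.109 and 0.185, and an event with other neighbours differed by -0.338 (adjusted p = 0.326). Forms of exon 5 with 2 upstream 3′ splice sites, of 139 and 157 nt, also rose by 0.0993 and 0.0948 (adjusted p = 0.00859 and 0.00785), sharing their skipping reads with it.

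ZNF598, the E3 ligase that marks ribosomes that have collided on an mRNA, had the most exons that rose, 8 of 13 tested, in 3 separate places of the gene. The 51 nt form was at 0.204, 0.745 and 0.350 in siNT and at 0.852, 0.947 and 0.876 in siSFSWAP libraries (log2 odds ratio 3.83 ± 0.88 SE, adjusted p = 4.52e-05), with a wide spread in siNT but no overlap. The full 157 nt coding exon that contains it went from 0.757 ± 0.163 to 0.975 ± 0.0120 (adjusted p = 6.20e-06). Forms of a second exon, the annotated one being 91 nt at chr16:2000391-2000481, were already near full inclusion and rose by between 0.0715 and 0.208. An unannotated 126 nt exon at chr16:2002991-2003116 rose from 0.710 ± 0.0414 to 0.906 ± 0.0377 (adjusted p = 0.0498). The first siNT library was the lowest at the exons of the first and second places, and the siNT libraries were spread more widely than the siSFSWAP libraries there.

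Further genes on the short arm of chromosome 16 moved the same way, of which ZNF263 was picked after its values were seen. In ZNF205 all 6 tested exons rose, 5 of them forms of exon 6 with different 3′ splice sites that share the last base, 3119015. The 319 and 212 nt forms had the same skipping reads, 60, 32 and 51 in siNT and 6, 3 and 14 in siSFSWAP libraries. Their inclusion reads in siNT were close, 143, 152 and 132 against 142, 155 and 137, so that they are not separate measurements. The annotated coding exon 6 of 111 nt (chr16:3118905-3119015) was at 0.664, 0.767 and 0.677 in siNT and at 0.951, 0.966 and 0.878 in siSFSWAP libraries (adjusted p = 1.89e-05), and the longest form, 319 nt, at 0.361, 0.529 and 0.380 against 0.847, 0.902 and 0.699 (adjusted p = 3.57e-05). In ZNF213, coding exon 5 (124 nt, chr16:3138975-3139098) rose from 0.620 ± 0.0482 to 0.895 ± 0.0714 (adjusted p = 0.00983), and an unannotated 201 nt form of it from 0.492 ± 0.0713 to 0.845 ± 0.102 (adjusted p = 0.00861). ZNF263 exon 2 (181 nt, chr16:3285059-3285239) went from 0.435 ± 0.0340 to 0.703 ± 0.111 and exon 3 (74 nt, chr16:3285681-3285754) from 0.267 ± 0.0291 to 0.561 ± 0.194, with adjusted p of 0.00165 and 0.00833 and with siSFSWAP libraries above every siNT library. The calls of the 212 and 319 nt forms of ZNF205 held without any 1 library, while that of the 201 nt form of ZNF213 was lost without the first or the last siNT or the second or the last siSFSWAP library (adjusted p from 0.0571 to 0.0769).

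Without UPF1 knockdown the calls on chromosome 16 were all rises. Of 52 member exons there, 19 rose and none fell by the quasi-binomial test (25 and 0 at an unadjusted p under 0.05, 1 and 0 by limma), 36.5% beside 17.4% called in either direction over all exons of that chromosome. These 19 include overlapping forms that share reads. They lay in 4 genes, at 3 places in ZNF598, 2 each in ZNF205 and ZNF263 and 1 in ZNF213. All 19 lay between base 1998965 and base 3313175, a stretch whose limits were drawn after the calls were known and which holds ZNF598, ZNF205, ZNF213, ZNF263 and ZNF75A. Within it 19 of 37 ZNF exons rose, in 4 of 6 genes. Of 132 exons of other genes 34 rose, in 9 of 25 genes, with none falling, so that rises there were not confined to ZNF genes. Elsewhere on chromosome 16, 0 of 15 ZNF exons passed by the quasi-binomial test or limma, with 2 at an unadjusted p under 0.05. The limits are the ends of the outermost ZNF exons called in either background, in ZNF598 and ZNF75A. The lack of quasi-binomial calls outside follows from that choice, and the contrast with the inside is no test. The 37 exons had a median of 148 reads per library and a GC content of 62.4%, those elsewhere 27.0 reads and 53.1%. With UPF1 knockdown the shares were the other way round, 3 of 42 ZNF exons of the stretch called (7.14% higher, 0 lower) beside 22 higher and 7 lower of 108 exons of other genes, and 5.56% of members on the whole chromosome beside 8.67% of all exons there.

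On chromosome 19, home to 306 of the 711 member exons, only 3 rose and 3 fell, 1.96% beside 18% of all exons tested on that chromosome. The rises were in ZNF274, which recruits SETDB1 to the 3′ ends of ZNF genes, and in 2 forms of an unannotated ZNF558 exon, and the falls in ZNF561 and the forms of ZNF700 exon 3. ZNF274 exon 6 (113 nt, chr19:58209961-58210073) was at 0.552, 0.929 and 0.782 in siNT and at 1.00, 0.933 and 0.945 in siSFSWAP libraries (adjusted p = 0.0150), with hardly a gap between the nearest libraries. ZNF274 and ZNF558 were picked after their values were seen. The median depth on chromosome 19 was 38 reads for members and 136 for all exons, and the part of depth in the gap was not tested.

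**Figure D2:**
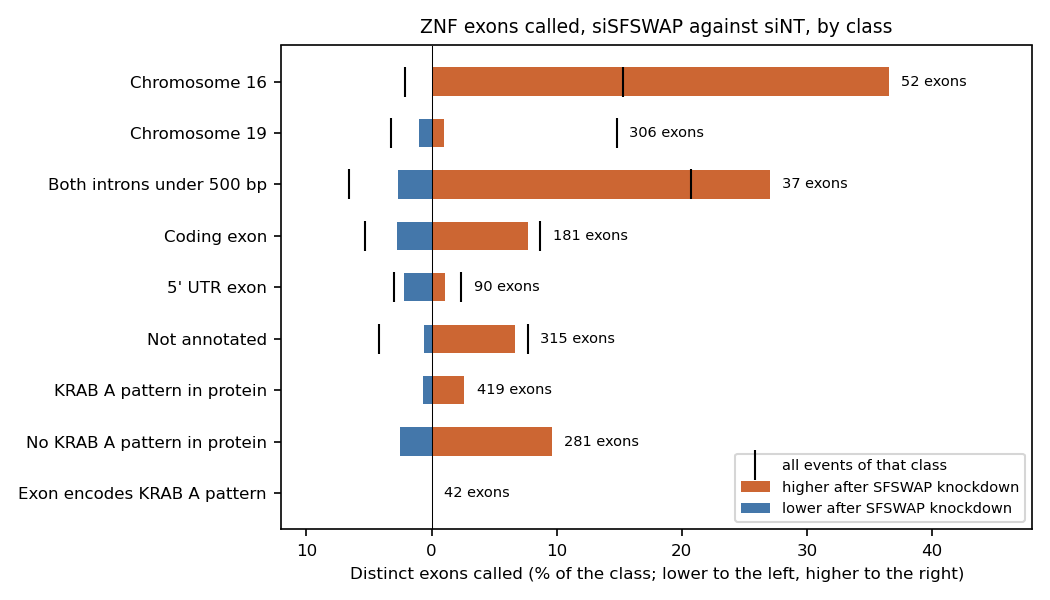
Percent of distinct member exons, by class, that were called higher (right) or lower (left) after SFSWAP knockdown, counted on the event with most reads; black ticks give the same for exons of all genes in that class, where it exists outside the members. Chromosome 16 has the highest share of members called higher and chromosome 19 almost none, while exons that match the strict KRAB A pattern have no call. Overlapping forms count as separate exons.

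Exons that rose differed from the rest in their surroundings. The 39 exons called higher on their best-read event had a median GC content of 61.6% and median flanking introns of 706.0 and 240.0 bp, beside 49.1% and 1818 and 2943 bp for the 662 exons that did not pass. These 39 exons came from 14 genes, and 19 of them lay in the chromosome 16 stretch. The 37 ZNF exons of that stretch, called or not, had a median GC content of 62.4%, so the values of the 39 partly describe that stretch. The 10 lower exons had a GC content of 44.6%. Over all genes the same order held, with 57.4% for higher, 48.9% for uncalled and 43.6% for lower exons. Of 37 member exons with introns under 500 bp on both sides, 10 rose and 1 fell, 29.7% beside 27.4% of all such exons, whereas only 5.20% of member exons sit between short introns against 10.6% of all exons. The match of the 5′ splice site to CAGGTAAGT was a median of 6 of 9 bases and the pyrimidine content before the 3′ splice site 72.2% in higher, uncalled and all exons alike. Exons of the same class share genes and reads, so these are descriptions of the exons.

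Presence of the KRAB pattern went with fewer calls and with shallower reads. In genes with the pattern 11 exons rose and 3 fell of 419 (3.34%), at a median of 34.3 reads, and in genes without it 27 rose and 7 fell of 281 (12.1%), at 73.2 reads. Because the pattern misses divergent boxes, the genes without it include KRAB genes such as ZNF263, with 3 called exons. The 2 classes are thus not genes with and without a KRAB domain. Coding exons passed in 19 of 181 cases (14 higher, 5 lower, 10.5% beside 14% of all coding exons). Leader exons, those in the 5′ UTR, passed in 3 of 90, 3.33% beside 5.38% of all such exons. Among them an 869 nt exon of ZNF687 (chr1:151285206-151286074) was at 0.107, 0.242 and 0.118 in siNT and at 0.579, 0.402 and 0.461 in siSFSWAP libraries (adjusted p = 0.00724). This call was lost without the first or the last siNT or the first siSFSWAP library, with adjusted p of 0.0719, 0.0883 and 0.0513. Nearly as many member exons as exons at large were not in the annotation, 44.3% against 44.8%, and 21 of these 315 rose and 2 fell, 7.30% beside 11.9% of all unannotated exons.

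**Figure D3:**
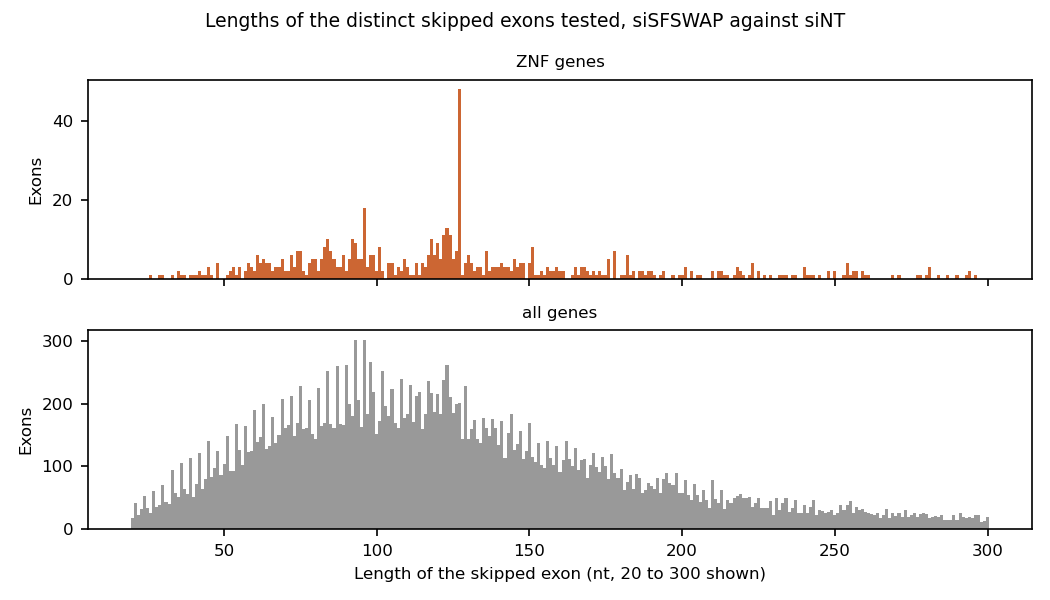
Number of distinct skipped exons tested (y axis) by exon length in nt (x axis) for ZNF genes (top) and all genes (bottom). The ZNF genes have a single tall bar at 127 nt, 48 exons, which the distribution over all genes does not share.

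The commonest length of a skipped ZNF exon was 127 nt. There were 48 such exons in 48 genes, 6.75% of the member exons against 0.658% of all exons tested, and the next commonest length, 96 nt, had 18. Of the 48, 38 encoded the KRAB A pattern and 25 were on chromosome 19. Aligned without gaps to the exon of ZNF75A shown above, the members of this length with the pattern had a median identity of 62.2% (54.3 to 70.1, 38 exons over both tables), 13 further members a median of 60.6% and 202 exons of other genes one of 26%. ZNF655 and ZNF767P, without the pattern, matched at 64.6% and 60.6%. An exon of this length is not a multiple of 3, so that skipping it shifts the reading frame.

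Few exons that match the KRAB A pattern passed the test, and few members at large did. The pattern misses divergent boxes, so exons that it did not match may still code for one. ZNF641 exon 4 and ZNF213 exon 5, both called without UPF1 knockdown, were not matched. Of 42 exons that encode the pattern, none passed under SFSWAP knockdown alone by the quasi-binomial test or limma, and at an unadjusted p under 0.05 there were 6 higher and 0 lower. With UPF1 knockdown 1 of 34 exons with the pattern passed, 2.94% beside 2.41% of member events and 7.52% of all events. It was ZNF75A exon 5, at 0.505, 0.435 and 0.609 in siNT/siUPF1 and at 0.856, 0.788 and 0.629 in siSFSWAP/siUPF1 libraries (log2 odds ratio 1.53 ± 0.47 SE, adjusted p = 0.0222). Without UPF1 knockdown the same exon was at 0.568, 0.507 and 0.474 against 0.711, 0.720 and 0.685, also without overlap, with an adjusted p of 0.0582. The call of ZNF75A was lost without the first or the second library of either group with UPF1 knockdown (adjusted p from 0.0546 to 0.290). The 127 nt exon of ZNF767P passed without UPF1 knockdown, at 0.716, 0.523 and 0.456 in siNT and 0.933, 1.00 and 0.865 in siSFSWAP libraries (adjusted p = 0.0101, and 0.0942, 0.0535 and 0.102 without the last siNT, the first siSFSWAP or the second siSFSWAP library). An event of the 127 nt exon of ZNF655 passed in both settings. It was at 0.104, 0.311 and 0.146 against 0.543, 0.508 and 0.394 without UPF1 knockdown (adjusted p = 0.00421). With UPF1 knockdown it was at 0.124, 0.127 and 0.216 against 0.637, 0.728 and 0.419 (adjusted p = 0.000152). On its event with most reads, against other neighbours, this exon passed in neither setting.

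Other exons that rose lay in genes with varied roles, of which ZNF76, ZNF618, ZNF512B and ZNF202 were picked after their values were seen. In ZNF26 the 104 nt exon printed above was at 0.403, 0.586 and 0.430 in siNT and at 0.938, 0.907 and 0.924 in siSFSWAP libraries (adjusted p = 0.00960, limma 0.0355, and 0.0787 and 0.0640 without the first or the last siSFSWAP library). Exon 12 of ZNF76, a relative of the transcription factor ZNF143, rose from 0.523 ± 0.0393 to 0.777 ± 0.179 (165 nt, chr6:35293751-35293915, adjusted p = 0.0265). Exon 11 of ZNF618, a protein that binds hydroxymethylated DNA, rose from 0.294 ± 0.0125 to 0.485 ± 0.176 (240 nt, chr9:114028733-114028972, adjusted p = 0.0457). In ZNF512B exon 6 and 3 unannotated forms overlapping it rose, exon 6 from 0.887 ± 0.0872 to 0.992 ± 0.0147 (227 nt, chr20:63964490-63964716, adjusted p = 0.0177). The 3 forms share reads with exon 6 and span the intron at chr20:63964392-63964489. Retention of that intron fell, from 0.114 ± 0.0444 to 0.0360 ± 0.0208, so that a rise of transcripts holding it is not shown. ZNF202 exon 8 went from 0.916 ± 0.0335 to 0.995 ± 0.00787 (120 nt, chr11:123727476-123727595, adjusted p = 0.0461).

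With UPF1 knockdown fewer ZNF events passed, and rises and falls were close in number. Rises made up 55.6% of the member calls and 53.8% of the calls over all events. Of 748 events tested in 215 genes, 10 rose in 4 genes and 8 fell in 5, which is 1.34% and 1.07% beside 4.05% and 3.47% of all 34006 events. Levels of the 2 groups did not overlap at 72 higher and 57 lower member events, 17.2% beside 21.6% of all events. By limma (pseudocount 0.5) none passed, and at an unadjusted p under 0.05 the quasi-binomial test had 54 higher and 38 lower, 12.3% beside 21.0% of all events.

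Events of ZNF207, ZNF384, ZNF598 and ZNF655 also passed here, in the same direction, though not all calls held without each library. ZNF207 exon 6 was at 0.978, 0.979 and 0.961 in siNT/siUPF1 and at 0.754, 0.770 and 0.922 in siSFSWAP/siUPF1 libraries (adjusted p = 2.15e-06), and exon 9 at 0.330, 0.476 and 0.467 against 0.105, 0.231 and 0.214 (adjusted p = 1.22e-08). ZNF384 exon 9 was at 0.158, 0.119 and 0.268 against 0.333, 0.274 and 0.382 (adjusted p = 0.00227), and exon 5 at 0.119, 0.0992 and 0.159 against 0.388, 0.319 and 0.290, this time without overlap (adjusted p = 0.00241). Without the second siNT/siUPF1 library the adjusted p of exons 9 and 5 was 0.254 and 0.0766, and without the last siSFSWAP/siUPF1 library that of exon 9 was 0.141. The 51 nt exon of ZNF598 overlapped between groups, at 0.664, 0.452 and 1.00 against 1.00, 0.892 and 0.930 (adjusted p = 0.0230). Its difference of 0.235 was 0.108 without the second siNT/siUPF1 library (adjusted p = 0.609) and 0.382 without the last, and the call was also lost without any 1 siSFSWAP/siUPF1 library. These 6 libraries are not those of the comparison without UPF1 knockdown.

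ZNF655 had the largest rises in this background. It is a C2H2 gene with many alternative exons, of which 32 events were members without UPF1 knockdown. A 105 nt in-frame exon (chr7:99571688-99571792) was at 0.204, 0.0834 and 0.191 in siNT/siUPF1 and at 0.759, 0.733 and 0.416 in siSFSWAP/siUPF1 libraries (difference 0.477, log2 odds ratio 3.23 ± 0.64 SE, adjusted p = 5.08e-05). Without UPF1 knockdown it was at 0.0789, 0.278 and 0.168 against 0.393, 0.454 and 0.281, also without overlap but with an adjusted p of 0.0858. An 86 nt exon (chr7:99561888-99561973), whose event is listed only with UPF1 knockdown, went from 0.0955 ± 0.0432 to 0.460 ± 0.181 (adjusted p = 0.00124, and 0.138 without the second siSFSWAP/siUPF1 library), although events reading it against other neighbours differed by -0.119 and 0.0389 and did not pass.

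The falls with UPF1 knockdown included ZNF410, the activator of the chromatin remodeller gene CHD4. Its exon 10 (chr14:73922066-73922206, plus strand) and a 64 nt form at the 3′ end of that exon (chr14:73922143-73922206) differ by the 3′ splice site used, as the sequences show.
ZNF410 exon 10: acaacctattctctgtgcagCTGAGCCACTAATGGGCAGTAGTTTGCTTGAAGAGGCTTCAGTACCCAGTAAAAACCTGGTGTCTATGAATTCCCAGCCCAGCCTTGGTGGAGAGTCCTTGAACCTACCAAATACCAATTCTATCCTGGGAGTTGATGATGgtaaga
ZNF410 exon of 64 nt: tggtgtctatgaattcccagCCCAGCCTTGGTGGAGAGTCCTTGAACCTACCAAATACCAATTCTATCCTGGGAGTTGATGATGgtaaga

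ZNF410 exon 10 was at 0.518, 0.582 and 0.367 in siNT/siUPF1 and at 0.180, 0.308 and 0.322 in siSFSWAP/siUPF1 libraries (adjusted p = 0.0118), and the 64 nt form at 0.418, 0.425 and 0.225 against 0.0389, 0.142 and 0.150 (adjusted p = 0.00296). Without UPF1 knockdown neither passed, with means of 0.417 and 0.360 for exon 10 (adjusted p = 0.492) and of 0.208 and 0.218 for the short form (adjusted p = 0.902). A 173 nt unannotated exon of ZNF236 (chr18:76928974-76929146) was at 0.214, 0.154 and 0.135 against 0, 0.0237 and 0.0279 (adjusted p = 0.0300), an 84 nt unannotated exon of ZNF449 (chrX:135348754-135348837) at 0.223, 0.452 and 0.191 against 0.140, 0.0431 and 0.0567 (adjusted p = 0.0424), and 2 overlapping unannotated exons of ZNF512, picked after their values were seen, fell from 0.134 ± 0.105 to 0.0289 ± 0.00102 and from 0.122 ± 0.0645 to 0.0260 ± 0.0111. Without the second siNT/siUPF1 library the adjusted p of the 64 nt form and exon 10 of ZNF410 was 0.130 and 0.236, and without the first siSFSWAP/siUPF1 library 0.0697 and 0.143. The call of ZNF410 exon 10 was also lost without the first siNT/siUPF1 or the second siSFSWAP/siUPF1 library. Those of ZNF236 and ZNF449 held only without the last siNT/siUPF1 library, and the difference at ZNF449 went from -0.209 to -0.127 without the second.

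**Figure D4:**
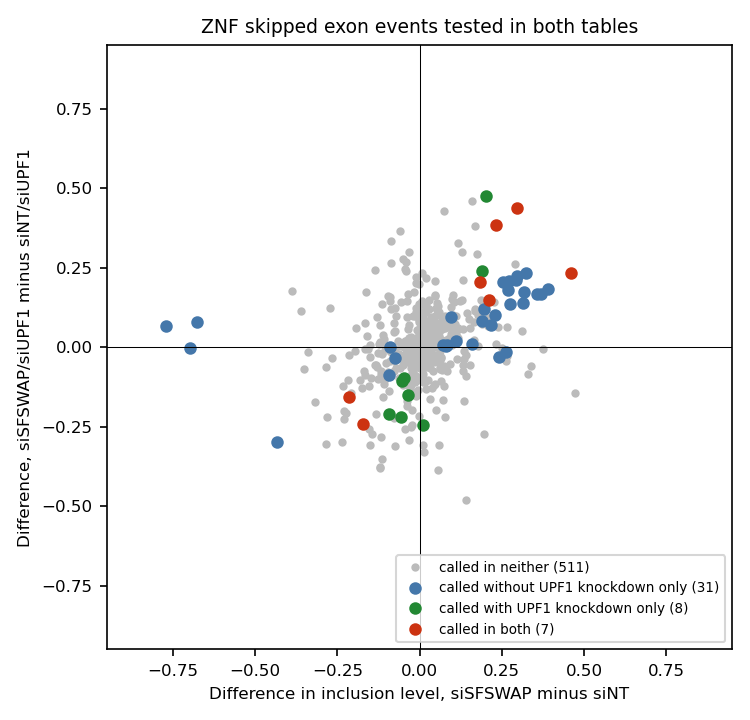
Difference in inclusion level after SFSWAP knockdown without (x axis) and with (y axis) UPF1 knockdown at the 557 ZNF events tested in both tables; each point is an event, coloured by where it was called. The 7 events called in both lie where both differences have the same sign, while 3 ZNF711 events at the far left lie near 0 on the y axis.

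Side by side, the 2 comparisons shared few calls but mostly the direction of them. Of 557 member events tested in both, 38 passed without UPF1 knockdown and 33 of these had the same sign with it (86.8%, beside 94.5% over all genes). There were 7 events that passed in both, 18.4% of the 38 and 46.7% of the 15 that passed with UPF1 knockdown, while over all genes the shares were 40.4% and 58.0%. All 7 kept their direction, 2 of ZNF207, 2 of ZNF384, 1 of ZNF598 and 2 of ZNF655. Across these 557 events, which share genes and reads, the correlation of the differences was 0.330, against 0.586 over all 22458 events.

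The difference between the backgrounds was itself tested, and no ZNF event passed. In the fit of all 12 libraries, on events listed in both tables, 0 of 819 member events had a detectably different SFSWAP effect with and without UPF1 knockdown (0.00771% of all events passed), by the quasi-binomial fit and by limma. At an unadjusted p under 0.05 there were 50 member events, 6.11% beside 6.96% of all events. The lowest value was at the 64 nt form of ZNF410, with a difference of differences of -0.256 in inclusion level (log2 odds -2.04 ± 0.60 SE, adjusted p = 0.547). Calls seen in 1 background and not in the other are thus not shown to differ between them.

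UPF1 knockdown on its own moved 1 ZNF event among those that could be tested. Only events listed in both tables entered. Events listed only with UPF1 knockdown, such as that of the 86 nt exon of ZNF655, could not be tested, so an effect of UPF1 on them would be missed. Of 619 tested between siNT and siNT/siUPF1 libraries, the 104 nt exon of ZNF26 rose (0.162% of members beside 1.17% of all events called), from 0.403, 0.586 and 0.430 to 1.00, 0.941 and 0.938 (adjusted p = 0.0341). It was at 0.886, 0.946 and 1.00 when both proteins were depleted, so that inclusion was at least 0.886 in each of the 9 libraries with either knockdown. The siNT libraries serve as controls for both of its calls, and the UPF1 call was lost by limma and without the first siNT library, when no member passed. On top of SFSWAP knockdown, 0 of 631 member events responded to UPF1 knockdown by the quasi-binomial test or limma (0.0816% of all events), with 33 at an unadjusted p under 0.05 (5.23% beside 4.97% of all events).

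The genes with the most reads differed in their calls. ZNF638, a nuclear protein that binds nucleic acids, had 57104 reads at its members without UPF1 knockdown, and none of its 6 tested exons passed, by the quasi-binomial test, by limma or at an unadjusted p under 0.05. The lowest adjusted p there, 0.597, was at an unannotated 72 nt exon with levels from 0 to 0.0277 in siNT and 0 to 0.0315 in siSFSWAP libraries. ZNF714 had 49982 reads and no call in 9 exons by either test (0 at an unadjusted p under 0.05, lowest adjusted p 0.540), while ZNF207, the third by reads with 39304, had both of its tested exons called and ZNF598, with 39208, 8 of 13. ZNF236, for which the study also used siRNAs, had 2 exons tested and no call without UPF1 knockdown by either test or at an unadjusted p under 0.05. Its 82 nt exon of an NMD transcript was at 0.0495, 0 and 0.0199 in siNT and 0.0132, 0.0750 and 0.0765 in siSFSWAP libraries (adjusted p = 0.542).

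**Figure D5:**
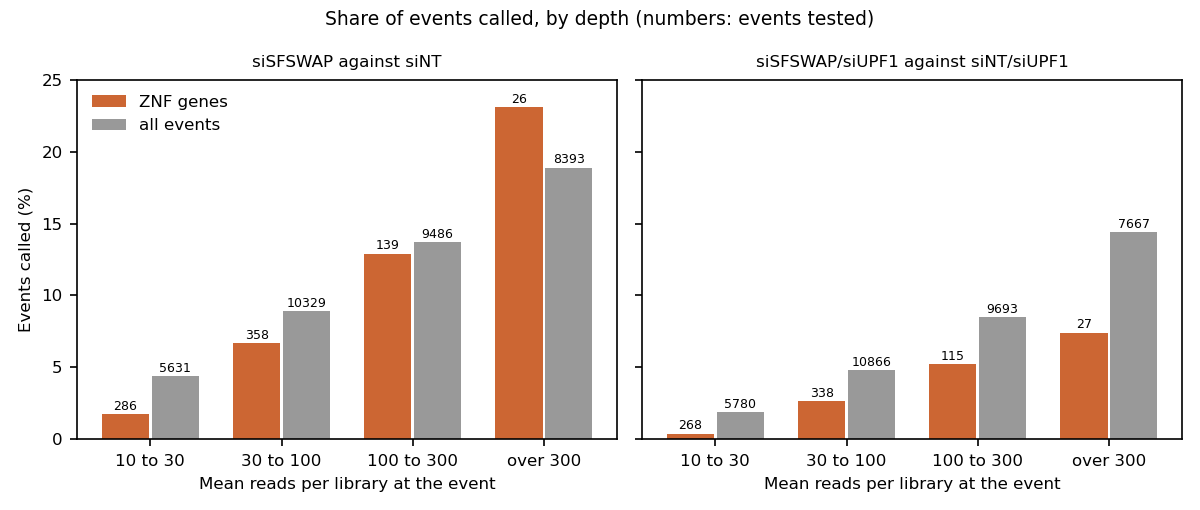
Percent of events called (y axis) in 4 bins of mean reads per library (x axis) for ZNF genes and for all events, without (left) and with (right) UPF1 knockdown; the number over each bar is the number of events tested. Bars rise with depth in every series, and the ZNF bars lie under those of all events except in the deepest bin on the left.

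The share of events that passed grew with depth. At 10 to 30 reads per library, where 286 of the 809 tested members lay, 1.75% of members and 4.39% of all events passed without UPF1 knockdown. The shares were 6.70% and 8.92% at 30 to 100 reads, 12.9% and 13.7% at 100 to 300, and 23.1% and 18.9% above 300, the last from 26 member events. With UPF1 knockdown the members were under all events in each bin, 0.373% against 1.87%, 2.66% against 4.81%, 5.22% against 8.47% and 7.41% against 14.4%.

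Retained introns of the same genes passed at a share near that of all introns. Of 55 retained intron events tested in ZNF genes without UPF1 knockdown, 6 fell in retention, in 3 genes picked after their values were seen, and none rose by the quasi-binomial test (2 at an unadjusted p under 0.05). That is 10.9% lower, beside 9.10% of all introns. ZNF512B had 4 of them, short introns of 98 to 268 bp, of which the 157 bp intron at chr20:63963914-63964070 went from 0.142, 0.0441 and 0.131 to 0.0165, 0 and 0.0184 (adjusted p = 0.00228). A 98 bp ZNF512B intron that fell, chr20:63964392-63964489, borders its exon 6, which rose. A 97 bp intron of ZNF598 (chr16:2002424-2002520) fell from 0.290 ± 0.115 to 0.138 ± 0.0430 (adjusted p = 0.0187), with groups that overlapped. ZNF248 had a 1712 bp intron (chr10:37831313-37833024) that fell from 0.331 ± 0.0843 to 0.184 ± 0.0251 without overlap (adjusted p = 0.00933). With UPF1 knockdown it was at 0.311, 0.276 and 0.345 against 0.186, 0.177 and 0.221 (adjusted p = 0.0299), the only call among 49 introns (2.04% beside 2.59% of all introns lower). By limma none of these introns passed.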

How the data were processed

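Single-end reads of polyA RNA from 12 libraries were trimmed with cutadapt and aligned with STAR in 2 passes by the authors, who ran rMATS on GRCh38 with predicted decoy exons added to the annotation. The deposited tables hold, per event and library, counts of reads that include or skip the exon (junction and exon reads), with inclusion levels. The authors' p-values, FDR and differences of inclusion level were not used. All libraries of a group stand in 1 cell without replicate numbers. That siSFSWAP is the second sample of each table follows the study's methods. Members and gene lists were chosen with earlier results of these data known.

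Events averaging at least 10 reads per library, with at least 10 inclusion and 10 skipping reads in all, were tested by quasi-binomial logistic regression in R 4.3.3, with dispersions shrunk by limma 3.58.1 and floored at 1, an F test, and Benjamini-Hochberg adjustment over all events (at most 0.05). Libraries held 25938092 to 40637076 skipped exon reads. Replicates were cells passaged at different times. UPF1 comparisons and the test of the difference between backgrounds joined events listed in both tables.

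Exons named were, per SFSWAP comparison and direction, the 6 with the largest difference among called exons with at least 30 reads and no overlap, the called exons of the UPF1 comparisons, the best exon of the 3 genes with most reads, and ZNF236. Others were picked after their values were seen. Annotation came from GENCODE 44, proteins from its reading frames, sequences from GRCh38. Alternatives were stricter and no filters, limma on log2 odds, other dispersions, 1 event per exon, a minimum difference, and leaving out each library.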

Additional observations from a re-analysis of the deposited data

How the results depend on the processing

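No paired analysis was possible because the tables join the libraries of a group in 1 cell with no replicate numbers, so that libraries are named by their place in that cell. Most calls depended on how dispersion was treated. With limma on log2 odds, 4 member events rose (12 with pseudocount 1) and 7 fell (6 with pseudocount 1) without UPF1 knockdown, against 43 and 10, while 3.66% of all events passed. With UPF1 knockdown limma called 0 in either direction at both pseudocounts, against 10 and 8, and of the UPF1 effect with SFSWAP present it called 0, against 1. Each event's own dispersion gave 0 for all of these counts. Without a filter 1 event rose and 0 fell, and 0 passed in the other comparisons. A difference of at least 0.2 left 6 lower events without and 4 with UPF1 knockdown. Leaving out 1 library gave 15 to 37 higher and 3 to 8 lower events without UPF1 knockdown, the lowest without the first siSFSWAP and the last siNT library (19, 17, 23 and 16 higher without the last or the first siNT and the second or the last siSFSWAP library, and 4 lower without the last siSFSWAP). With UPF1 knockdown it gave 3 to 15 higher (3 and 15 without the second and the last siNT/siUPF1, 4 without the second siSFSWAP/siUPF1) and 2 to 8 lower (2 without the second siNT/siUPF1 or the first siSFSWAP/siUPF1, 4 and 5 without the second and the last siSFSWAP/siUPF1). For UPF1 with SFSWAP present it gave 0 (without the first siNT) to 5 (without the second), and 2 without the second or the last siNT/siUPF1. The 6 retained introns became 3 to 5, and 0 by limma. The 1 with UPF1 knockdown became 0 to 1, and 0 by limma. At 30 reads, with a dispersion trend or with 1 event per exon, counts stayed within 1.5 times. Over named exons 434 alternatives kept the call or its absence, 163 lost a call and 1 gained one. The 434 include comparisons that had no call to lose. Of 27 calls at named exons, limma (pseudocount 0.5) lost 24, the fit without a filter 26 and each event's own dispersion 27. Leaving out 1 library lost the call in 62 of 162 fits. Other events of the same exon reversed 2, ZNF207 exon 9 (0.0639) and ZNF384 exon 5 (-0.338), neither passing. The causes were not tested. Most ZNF exons were read shallowly, at a median of 41.8 reads per library.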

Other observations

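The corepressors that KRAB zinc finger proteins recruit were read from a list of genes chosen with earlier results of these data known. Of 45 of their skipped exon events tested in 9 genes, 3 rose and 6 fell after SFSWAP knockdown, in TRIM28, CHD3, HDAC1 and CBX3. This share of 20%, at a median of 361 reads per library, was near the 18.9% of all events with over 300 reads, and 12% of all events passed. TRIM28, the scaffold that binds the KRAB box, had exon 2 (chr19:58545425-58545537) rise from 0.600 ± 0.129 to 0.9 ± 0.0424 (SD, n = 3, adjusted p = 5.12e-08, quasi-binomial test with limma's variance shrinkage) and exon 3 (chr19:58545764-58545896) from 0.813 ± 0.0942 to 0.962 ± 0.0194 (adjusted p = 7.80e-08). In CHD3, a remodeller of the NuRD complex, exon 33 (chr17:7907601-7907702) rose from 0.239 ± 0.125 to 0.553 ± 0.0386 (adjusted p = 1.60e-07). In HDAC1, the deacetylase of that complex, exon 13 (chr1:32332701-32332749) fell from 0.987 ± 0.00457 to 0.930 ± 0.0178 (adjusted p = 2.68e-06). With UPF1 knockdown 3 of 36 events rose and 3 fell, in CHD3 and HDAC1, 16.7% at a median of 322 reads beside 14.4% of all events with over 300 reads, and CHD3 exon 33 rose from 0.248 ± 0.0705 to 0.530 ± 0.05 (adjusted p = 2.13e-06).

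Related zinc finger families were read for comparison, beside 12% of all events called without and 7.52% with UPF1 knockdown. Of 26 events in ZSCAN genes 2 rose (ZSCAN18, 7.69%), of 12 in ZKSCAN genes 1 rose (ZKSCAN8, 8.33%), of 50 in ZBTB genes 1 rose (ZBTB17, 2.00%), and of 14 in genes whose symbol begins with ZFP and a number 1 fell (ZFP91CNTF, a readthrough gene, 7.14%). Their median depths ran from 31.4 reads per library in ZSCAN to 151 in ZFP genes. With UPF1 knockdown 2 of 25 ZSCAN events fell (ZSCAN26), and 0 of 13 ZKSCAN, 0 of 17 ZFP and 0 of 53 ZBTB events passed by the quasi-binomial test or limma, with 3, 0 and 5 at an unadjusted p under 0.05.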
